A study of Caenorhabditis elegans with 12 samples.

Results

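The genes of Caenorhabditis elegans that are related to hedgehog and to patched were followed in worms exposed to ultraviolet light (UV), to titanium dioxide (TiO2), to the combination or to none of these. The members were all genes with a symbol beginning grd- (ground), grl- (ground-like), wrt- (warthog), hog-, ptc- (patched) or ptr- (patched-related), together with qua-1 (quahog). A gene was taken only from probe sets that the platform annotation gives to a single gene, and where it had several, the brightest on average over the 12 arrays stood for it. This gave 80 of the 17118 genes so measured: 30 grl, 24 ptr, 12 grd, 10 wrt and 2 ptc genes, hog-1 and qua-1. Another 8 genes with such symbols, grd-4, grd-6, grd-13, grd-15, grd-17, grl-26, grl-32 and ptc-2, had no probe set of their own and are not analysed here as genes. No filter on low values was applied, so all 80 members were tested.

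The worms were wild-type hermaphrodites, young adults from an age-synchronized culture raised on bacteria. All 4 groups, control, UV, TiO2 and UV+TiO2, spent 24 h at 20 °C in a potassium and sodium chloride medium with no food, so the controls were fasted as well. The UV and UV+TiO2 groups were irradiated during the first 4 h and spent the other 20 h beside the unirradiated groups. The TiO2 dose and the UV dose and wavelength are not given in the sources used here. Total RNA of whole worms was measured on 3 Affymetrix arrays for each group, and the values are log2 signals, so that a difference of 1 is a 2-fold difference. Whether the 3 arrays of a group stem from separate worm cultures is not given in the labels, and the p-values therefore reflect just the scatter among these samples, which may be technical. Because whole animals were measured, fewer cells of a type and less RNA per cell cannot be told apart.

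In flies and vertebrates, hedgehog is a secreted ligand that is cut and joined to a sterol by its own carboxy-terminal Hog domain, and Patched is the membrane receptor, with a sterol-sensing domain, to which it binds. C. elegans lacks a canonical hedgehog ligand and a clear counterpart of Smoothened, the protein that Patched holds in check. It has instead large families of secreted proteins with Wart, Ground or Ground-like domains, some of them joined to a Hog domain, and a large family of Patched-related membrane proteins. Many of these genes are transcribed in the epidermis and other epithelia that secrete cuticle, and reduced function of several of them disturbs moulting.

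After UV more members fell than rose. Of the 80 members 40 fell and 11 rose against control, where a call is a limma adjusted p under 0.05. Among all 17118 genes 22.8% were lower and 27.9% higher in the same comparison. The median log2 change was −0.28 over the members and 0.11 over all genes. At least 2-fold falls were measured for 26 members, against 9.97% of all genes that were both called and at least 2-fold lower. At least 4-fold falls were called for 9 of the 80 members, to −3.28 in wrt-1, and for 495 of all 17118 genes. At least 2-fold rises were called for 1 member, grd-3, and for 683 of all 17118 genes. In 41 members all 3 UV arrays lay below all 3 control arrays, which held for 24.3% of all genes. Over the 4 groups together 50 of the 80 members differed by limma's moderated F-test, against 55.6% of all genes, a share near the background.

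The rises were less firm than the falls. Leaving out control replicate 1 reduced the 11 rises to 5, leaving out control replicate 2 to 7, and leaving out UV replicate 3 to 6, whereas the 40 falls stayed between 37 and 40 with any array left out. The array medians were 6.36 to 6.45 in the UV group and 6.54 to 6.62 in control. When each array was centred on its own median, the median change of all genes moved from 0.11 to 0.29, 37 members were lower and 23 higher, and 18.3% of all genes were lower and 54.7% higher. The member median under that centring was −0.10, again below that of all genes.

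**Figure D1:**
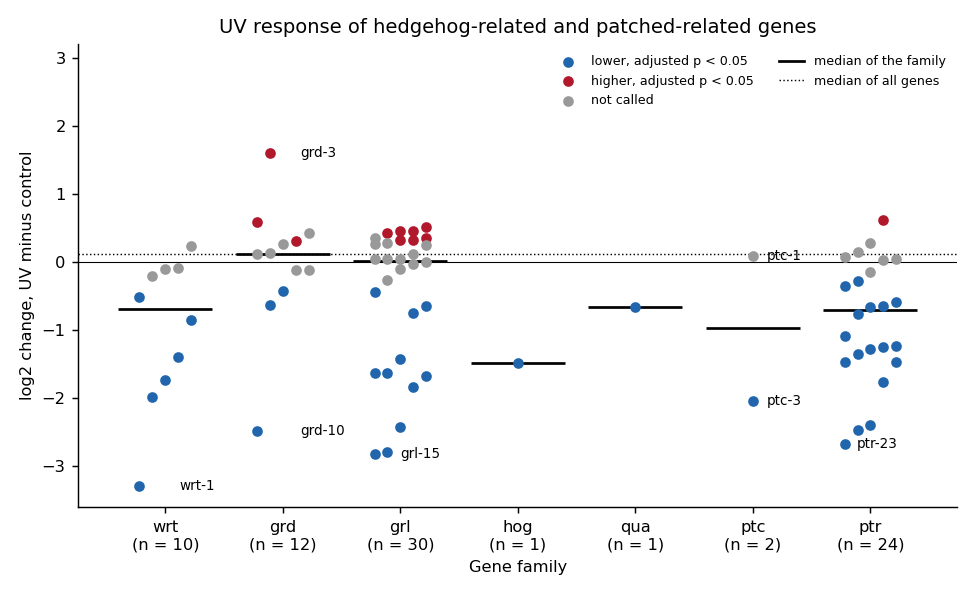
Log2 change after UV (UV minus control, vertical axis) of the 80 genes by family (horizontal axis, number of genes under each name). Each point is a gene coloured by its limma call, the black line is the family's median and the dotted line the median of all genes. The ptr and wrt points lie mostly below 0, with medians of −0.71 and −0.68, while the grd and grl points spread to both sides of 0.

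The warthog genes (wrt) encode secreted proteins with a Wart domain, several with a Hog domain as well. Of the 10 members 6 fell after UV and none was called higher, against 22.8% and 27.9% of all genes. The median of the 10 was −0.68. The deepest fall of all members was that of wrt-1. Its signal was 9.69, 9.78 and 9.85 on the control arrays and 6.44, 6.23 and 6.79 on the UV arrays. On the TiO2 arrays it was 9.71, 9.73 and 9.77, and on the UV+TiO2 arrays 6.68, 6.65 and 6.71. The irradiated and unirradiated arrays were thus separated by a wide gap whether or not TiO2 was present. UV lowered wrt-1 9.74-fold (log2 change −3.28, SE 0.12, adjusted p = 4.33e-10).

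The epidermal gene wrt-2 measured 9.99, 10.26 and 10.23 in control and 8.03, 8.27 and 8.23 after UV, a 3.96-fold fall (adjusted p = 1.2e-08). With TiO2 it read 10.32, 10.07 and 10.24 without UV and 8.17, 8.29 and 8.32 with it. Its irradiated and unirradiated arrays did not overlap. The gene wrt-10 fell 3.31-fold, from 9.41 ± 0.15 (SD, n = 3) to 7.68 ± 0.10. It was the warthog gene with the largest difference between UV+TiO2 and UV alone, which is given below with the other TiO2 values. The remaining falls were wrt-4 (−1.40), wrt-6 (−0.86) and wrt-3 (−0.51), all log2 changes. By contrast wrt-5, a gene required for normal development, read 7.84, 8.16 and 8.09 in control and 7.89, 7.99 and 7.95 after UV, with overlapping arrays and a log2 change of −0.09 (SE 0.093, adjusted p = 0.44). The genes wrt-7, wrt-8 and wrt-9 did not pass the threshold either, with log2 changes of 0.24, −0.20 and −0.10.

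The ground genes (grd) encode secreted proteins with a Ground domain. Of their 12 members 3 fell (25%), 3 rose (25%) and 6 were not called. These shares were near those of all genes, 22.8% lower and 27.9% higher. The seam-cell gene grd-10 read 9.67, 9.51 and 8.95 in control and 7.10, 6.71 and 6.88 after UV. It fell 5.55-fold (log2 change −2.47, SE 0.17, adjusted p = 1.28e-07). The gene grd-3 went the other way, from 8.04, 8.52 and 8.64 on the control arrays to 10.18, 10.00 and 9.82 on the UV arrays. Its arrays were 8.22, 7.99 and 7.90 with TiO2 alone and 9.87, 9.38 and 9.95 with both, so every irradiated array lay above every unirradiated one. This rise was 3.03-fold (log2 change 1.60, SE 0.18, adjusted p = 9.92e-06), the largest among the members. In the RefSeq annotation of assembly WBcel235 grd-3 and grd-10, which changed in opposite directions, are consecutive protein-coding genes on chromosome IV.

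Of the other ground genes grd-12 (−0.63) and grd-14 (−0.43) fell and grd-11 rose, from 4.85 ± 0.08 to 5.43 ± 0.18 (adjusted p = 0.000442). The rise of grd-9 (log2 change 0.30, adjusted p = 0.0472) was close to the threshold and was lost when most single arrays were left out, with an adjusted p = 0.177 without control replicate 1. The 6 ground genes that were not called lay between −0.12 (grd-16) and 0.43 (grd-5). Of these grd-5 had the brightest signal of its family and read 8.98, 9.34 and 9.23 in control and 9.85, 9.65 and 9.33 after UV, with an adjusted p = 0.0941. Its lowest UV array lay below its highest control array.

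The ground-like genes (grl) form the largest family, with 30 members, of which 11 fell, 7 rose and 12 were not called. That is 36.7% lower and 23.3% higher, against 22.8% and 27.9% of all genes. The family's median of 0.02 had no stable sign, since it was −0.01 both after a further quantile normalization and with the width of each array as a covariate. The falls were large and the rises small. The gene grl-15 read 10.18, 10.44 and 10.50 in control and 7.83, 7.49 and 7.33 after UV. With TiO2 its values were 10.32, 10.64 and 10.44 without UV and 7.24, 7.43 and 7.28 with UV. These are falls of 7.07-fold without and 8.89-fold with TiO2, and no irradiated array reached an unirradiated one.

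For grl-4 the control arrays read 9.33, 9.53 and 9.35 and the UV arrays 6.49, 6.78 and 6.57, a 6.92-fold fall (adjusted p = 4.35e-10). The gene grl-21, which work in C. elegans has linked to fat storage together with ptr-24, read 9.37, 9.32 and 9.38 in control and 6.94, 6.95 and 6.91 after UV. It had the smallest adjusted p of the members (8.22e-11), and its SD within a group lay between 0.01 and 0.05. The gene grl-7, whose protein marks a patterned extracellular matrix of the epidermis, read 8.84, 9.67 and 9.50 in control and 7.57, 7.33 and 7.60 after UV (3.57-fold lower, adjusted p = 3.03e-06). Its other probe set fell further, with a log2 change of −3.48.

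The other falls of 1 or more on the log2 scale were those of grl-10 (−1.67), grl-1 (−1.63), grl-5 (−1.63) and grl-16 (−1.42). Smaller falls were measured for grl-11 (−0.75), grl-6 (−0.65) and grl-2 (−0.45), the last a marker of the excretory duct and pore and of socket glia. For grl-2 the control arrays read 5.98, 5.65 and 6.04 and the UV arrays 5.24, 5.49 and 5.60, without overlap. The 7 ground-like rises lay between 0.32 and 0.51: grl-20, grl-23, grl-25, grl-17, grl-30, grl-28 and grl-29, in order of size. The gene grl-23 rose from 5.36 ± 0.23 to 5.82 ± 0.08 (adjusted p = 0.00863) and grl-17 from 5.87 ± 0.10 to 6.30 ± 0.12 (adjusted p = 0.00888).

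Several of the small rises hung on single arrays. Without control replicate 1 the adjusted p was 0.0596 for grl-20, 0.113 for grl-25, 0.114 for grl-29 and 0.163 for grl-30, and without UV replicate 3 it was 0.0885 for grl-25, 0.103 for grl-29 and 0.118 for grl-30. Leaving out control replicate 2 ended the calls of grl-20 (adjusted p = 0.0512), grl-25 (adjusted p = 0.102) and grl-30 (adjusted p = 0.0538), UV replicate 1 those of grl-29 (adjusted p = 0.0553) and grl-30 (adjusted p = 0.103), and UV replicate 2 that of grl-25 (adjusted p = 0.069). The 12 ground-like genes that were not called, among them the glial marker grl-18 (log2 change 0.05), ranged from −0.27 (grl-8) to 0.36 (grl-27).

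The gene hog-1 encodes a protein with a Hog domain, and qua-1 a Hog-domain protein that C. elegans larvae need to moult. On the control arrays hog-1 read 6.56, 6.63 and 6.24 and on the UV arrays 5.10, 4.75 and 5.12, 2.81-fold lower (adjusted p = 1.46e-06). For qua-1 the values were 6.69, 6.61 and 6.90 and 6.06, 6.02 and 6.16, 1.57-fold lower (adjusted p = 0.000377). With TiO2 present hog-1 went from 6.69 ± 0.16 to 5.02 ± 0.11 and qua-1 from 6.99 ± 0.19 to 6.03 ± 0.11. Neither gene's irradiated arrays overlapped its unirradiated ones. Over the 54 hedgehog-related members (grd, grl, hog, qua and wrt) 22 fell (40.7%) and 10 rose (18.5%), against 22.8% and 27.9% of all genes. The median of the 54 was −0.10, or 0.08 with every array centred on its own median.

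**Figure D2:**
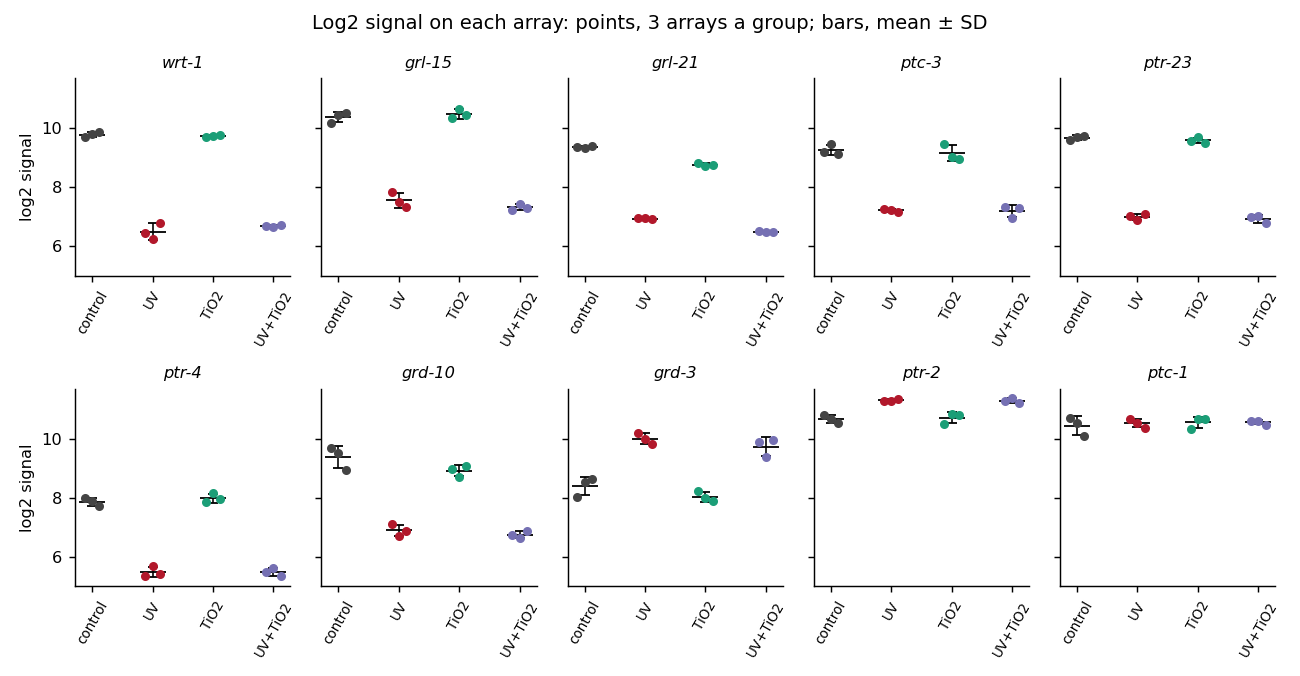
Log2 signal (vertical axis) of 10 members on each of the 12 arrays by group (horizontal axis), with points for the 3 arrays of a group and bars for the mean ± SD. The UV and UV+TiO2 points of wrt-1, grl-15, grl-21, ptc-3, ptr-23, ptr-4 and grd-10 lie below the control and TiO2 points, those of grd-3 and ptr-2 lie above them, and those of ptc-1 overlap them.

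Among the genes of the receptor family, patched and patched-related, more fell than rose. Of 26 members (ptc and ptr) 18 fell (69.2%) and 1 rose (3.8%) after UV, against 22.8% and 27.9% of all genes. The median of the 26, −0.71, stayed negative under each scaling tried, between −0.53 and −0.72. The 2 patched genes themselves differed. The gene ptc-3, essential and needed for moulting and fluid balance, read 9.17, 9.46 and 9.13 in control and 7.25, 7.24 and 7.15 after UV. With TiO2 it read 9.46, 9.03 and 8.94 without UV and 7.32, 6.96 and 7.30 with it. It fell 4.11-fold (log2 change −2.04, SE 0.14, adjusted p = 1.61e-07), with no overlap between irradiated and unirradiated arrays.

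For ptc-1, which acts in cytokinesis of the germline, the brightest of its probe sets read 10.70, 10.52 and 10.09 in control and 10.66, 10.54 and 10.37 after UV, overlapping, with a log2 change of 0.09 (SE 0.15, adjusted p = 0.639). Its other probe set was higher after UV, from 7.55 ± 0.10 to 8.22 ± 0.08, so the gene's response depends on the probe set. A probe set that the annotation assigns to both ptc-1 and ptc-2 was higher as well, by 0.47 on the log2 scale (adjusted p = 0.00273). One that covers grl-32 and other genes was higher by 0.38 (adjusted p = 0.00326).

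Of the 24 patched-related genes (ptr) 17 fell (70.8%), 1 rose (4.2%) and 6 were not called. The deepest fall was that of ptr-23, which in C. elegans acts in the response to osmotic stress. It read 9.58, 9.68 and 9.74 in control and 7.01, 6.88 and 7.08 after UV, and 9.56, 9.68 and 9.49 with TiO2 against 6.99, 7.01 and 6.77 with both. UV lowered it 6.40-fold (log2 change −2.68, SE 0.095, adjusted p = 3.77e-10), and its other 3 probe sets fell as well, with log2 changes between −2.72 and −1.80. The gene ptr-4, which works in the precuticle matrix and in moulting, read 7.87 ± 0.14 in control and 5.49 ± 0.17 after UV (mean ± SD, n = 3), without overlap, 5.23-fold lower (adjusted p = 6.78e-09). Its second probe set fell by 0.71 on the log2 scale, so its direction held but its size did not. For ptr-20 the control arrays read 8.43, 8.49 and 8.44 and the UV arrays 5.77, 5.96 and 6.23, 5.52-fold lower (adjusted p = 2.27e-09).

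Another 8 patched-related genes fell by 1 or more on the log2 scale, from ptr-16 (−1.75) through ptr-22, ptr-25, ptr-11, ptr-8, ptr-6 and ptr-24 to ptr-14 (−1.09). Of these ptr-24, studied with grl-21 for fat storage, read 9.01, 8.56 and 8.68 in control and 7.54, 7.52 and 7.51 after UV (2.34-fold lower, adjusted p = 2.42e-05). The control arrays of ptr-6 were the most spread of the members described here, at 6.25, 5.36 and 5.09, against 4.25, 4.38 and 4.32 after UV. The 6 smaller falls were those of ptr-18, ptr-1, ptr-5, ptr-12, ptr-15 and ptr-10, between −0.76 and −0.28. Of these ptr-18, which limits the build-up of the GRL-7 protein, read 7.32, 7.77 and 7.64 in control and 6.80, 6.76 and 6.89 after UV (adjusted p = 0.000723).

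The exception was ptr-2, which contributes to the permeability barrier of the eggshell. It read 10.80, 10.68 and 10.54 in control and 11.28, 11.26 and 11.35 after UV, a 1.54-fold rise (log2 change 0.62, SE 0.10, adjusted p = 0.000322). With TiO2 it rose from 10.50, 10.82 and 10.81 to 11.27, 11.37 and 11.20. All irradiated arrays lay above all unirradiated ones. A second probe set of ptr-2 was higher by 0.69, and the third, dimmest one changed by 0.16 with an adjusted p = 0.147. The 6 members that were not called, ptr-3, ptr-9, ptr-13, ptr-17, ptr-19 and ptr-21, ranged from −0.15 to 0.28.

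The members were also sorted by signal strength. Signals of different probe sets are not comparable as amounts of RNA, and were used here only to divide the members into those above and below the median of all probe sets, a log2 signal of 6.53. Of the 34 members above it 23 fell and 2 rose, with a median of −1.31, against 30.7% of genes above that level that were lower, 36% that were higher, and a median of 0.13. Of the 46 members below it 17 fell and 9 rose, with a median of −0.06, against 14.8% of genes below that level that were lower, 19.8% that were higher, and a median of 0.11. The share of rises among the dimmer members was thus near the background. The families differed in this split, with no test made of it. Of the 10 ground-like genes above the median level 8 fell and none was called higher, and of the 20 below it 3 fell and 7 rose. Warthog genes fell in 4 of 5 cases above it and in 2 of 5 below it. In the ptr genes the calls had no such split: 8 of the 12 above it fell and 1 rose, and 9 of the 12 below it fell and none was called higher. The median ptr change was nonetheless lower above it, at −1.26, than below it, at −0.62. Of the 5 ground genes above it 2 fell and 1 rose, and of the 7 below it 1 fell and 2 rose. The members' mean signals over all arrays ran from 3.72 (grl-24) to 10.99 (ptr-2). Dim probe sets report changes with less contrast, and which members lie at background was not measured, since no detection calls were used here.

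**Figure D3:**
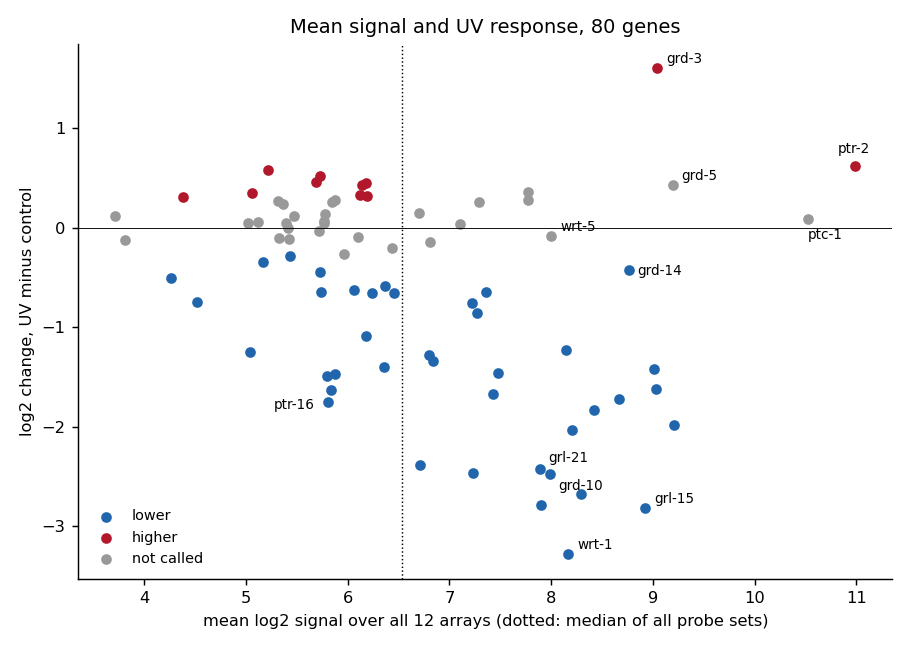
Log2 change after UV (UV minus control, vertical axis) against the mean log2 signal over all 12 arrays (horizontal axis) for the 80 genes, one point each, coloured by limma call. The dotted line is the median signal of all probe sets, 6.53. To its right 23 of 34 genes fell and 2, grd-3 and ptr-2, rose; to its left 9 of the 11 rises lie, none above 0.58.

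Probe sets that can also detect related sequences, marked by the suffix _s_at or _x_at, represented 27 members, of which 20 fell and 2 rose. Of the 53 members without such a suffix 20 fell and 9 rose. Among all genes 22.8% were lower and 27.9% higher, but the same split was not counted for them. Most of the 27 were ptr or wrt genes. Suffix and family thus overlapped in part, and the split by suffix within a family was not counted. A probe set of that kind can mix members of a family, which was not resolved here. Among the 12 members with more than 1 probe set the call differed between them for grd-1, grl-20, grl-25, ptc-1 and ptr-2. For grd-1 the sign differed too: the probe set that stands for the gene changed by −0.12 (adjusted p = 0.328) and the other one was higher by 0.31 (adjusted p = 0.0411). The sign also differed for wrt-9, at −0.10 (adjusted p = 0.365) and 0.12 (adjusted p = 0.436), with neither probe set called. The second probe set of grl-20 changed by 0.26 (adjusted p = 0.0841) and that of grl-25 by 0.10 (adjusted p = 0.465).

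The second UV comparison, UV+TiO2 against TiO2, uses none of the arrays of the first. All 12 were normalized together, however, and both comparisons share the same estimate of spread. Of the 80 members 38 fell and 9 rose in it, against 21.8% of all genes lower and 32.8% higher. Its member median was −0.25 and that of all genes 0.16. The members' 2 sets of log2 changes correlated at r = 0.982 (Spearman 0.962) across the 80 genes, which are not independent replicates, and the same correlation across all 17118 genes was 0.965. They had the same sign in 77 members (96.25%), and in 90.3% of all genes. Both comparisons called 37 members lower, against 19.9% of all genes, and 7 higher, against 22.7% of all genes. None was called in opposite directions. The 9 rises of the second comparison became 4 without TiO2 replicate 2 and 5 without UV+TiO2 replicate 1. The median size of the difference between both changes was 0.12, and the largest was 0.58, in ptr-18.

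In ptr-18 the UV arrays lay 0.76 below control on the log2 scale, and the UV+TiO2 arrays 1.34 below TiO2. The TiO2 arrays read 8.07, 7.63 and 8.04 and the UV+TiO2 arrays 6.41, 6.56 and 6.75. By limma's interaction test the difference of −0.58 (SE 0.20) did not pass, with an adjusted p = 0.897. Members with a call in the second comparison alone were wrt-5, lower by 0.28 (adjusted p = 0.0248), and grl-31 and grl-18, higher by 0.39 (adjusted p = 0.0143) and 0.24 (adjusted p = 0.04). The wrt-5 call ended without TiO2 replicate 1 (adjusted p = 0.076) or 3 (adjusted p = 0.0587) and without any 1 of the UV+TiO2 arrays (adjusted p = 0.0561 to 0.0622), and its change was −0.01 after a further quantile normalization. The grl-31 call ended without TiO2 replicate 2 (adjusted p = 0.0619) and without UV+TiO2 replicate 1 (adjusted p = 0.0639).

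**Figure D4:**
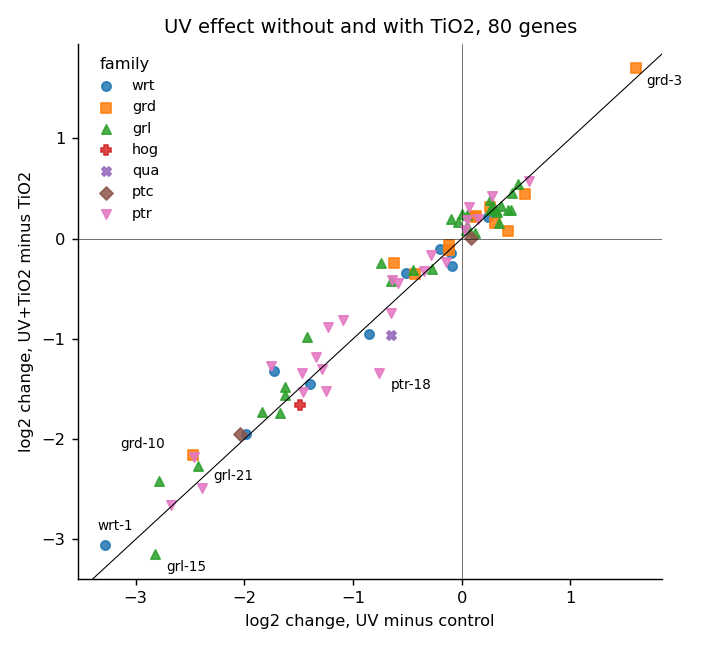
UV effect in worms without TiO2 (horizontal axis, log2 change, UV minus control) against that in worms with TiO2 (vertical axis, log2 change, UV+TiO2 minus TiO2) for the 80 genes, with a symbol for each family and the line of equal change. The points follow the line from wrt-1 at −3.28 and −3.06 to grd-3 at 1.60 and 1.70, and ptr-18 lies 0.58 below it.

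Worms given UV and TiO2 together were also set against the untreated control, with which the first comparison shares its 3 control arrays. Of the 80 members 37 were lower and 12 higher, against 22.2% and 32.4% of all genes, with a median of −0.22 (all genes 0.15). The 12 rises became 24 without control replicate 3, the control array with the narrowest distribution (SD 2.22). The falls ranged from −3.09 (wrt-1) and −3.06 (grl-15), and the largest rise was that of grd-3 at 1.33. The genes grl-21 (−2.86), grl-4 (−2.83), ptr-23 (−2.75), grd-10 (−2.62), ptr-4 (−2.38) and ptr-20 (−2.30) followed among the falls. Rises in this comparison that the UV comparison did not call were those of grl-31 (0.46), wrt-7 (0.39) and ptr-13 (0.54) among the members described by the rule, and ptr-13 lost its call without UV+TiO2 replicate 3 (adjusted p = 0.0754) and without control replicate 1 (adjusted p = 0.0697).

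TiO2 alone moved 1 of the 80 members past the threshold, and it was the 1 gene called among all 17118 (0.00584%). In grl-21 the control arrays read 9.37, 9.32 and 9.38 and the TiO2 arrays 8.82, 8.71 and 8.76. The TiO2 arrays lay below the control arrays without overlap, by 0.60 on the log2 scale or 1.51-fold (SE 0.071, adjusted p = 0.0394). The next smallest p-values belonged to grl-4 (log2 change −0.41, adjusted p = 0.513) and grl-11 (−0.34, adjusted p = 0.896), which did not pass. Before adjustment 7 members and 785 of all genes had a p under 0.05.

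On top of UV the same gene stood out. UV+TiO2 differed from UV alone for 1 member, grl-21, against 0.117% of all genes. Its UV arrays read 6.94, 6.95 and 6.91 and its UV+TiO2 arrays 6.51, 6.49 and 6.48, a difference of −0.44 (SE 0.071, 1.35-fold, adjusted p = 0.0459). The 2 comparisons use different arrays but the same estimate of spread, taken from all 12 arrays, and thus the same SE. Both calls were near the threshold and depended on the processing: the first ended under 17 of 23 alternatives and the second under 16 of 23, among them all but 1 of the 12 left-out arrays in each case (the exceptions were control replicate 2 in the first and control replicate 1 in the second). The size held, between −0.65 and −0.57 in the first and between −0.52 and −0.43 in the second.

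Beside grl-21, wrt-10 was higher with UV+TiO2 than with UV, at 8.32, 7.92 and 8.14 against 7.76, 7.57 and 7.70 without overlap, but did not pass (log2 change 0.45, adjusted p = 0.249). The gene grd-5 read 9.32, 8.50 and 9.27 against 9.85, 9.65 and 9.33 (log2 change −0.58, adjusted p = 0.578). Before adjustment 6 members and 1110 of all genes had a p under 0.05. Limma's interaction test, which asks whether the UV effect differs with TiO2, called 0 members and 0% of all genes. At an unadjusted p under 0.05 it held 7 members and 906 of all genes, and the smallest adjusted p-values among the members were 0.855 for grl-11, 0.897 for ptr-18 and 0.908 for grl-4. With 3 arrays a group the median SE of a difference was 0.12 on the log2 scale. Differences several times that size did not pass in the TiO2 comparisons, as the values of grl-4, wrt-10 and grd-5 show, so TiO2 effects of such size in single genes could have been missed.

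**Figure D5:**
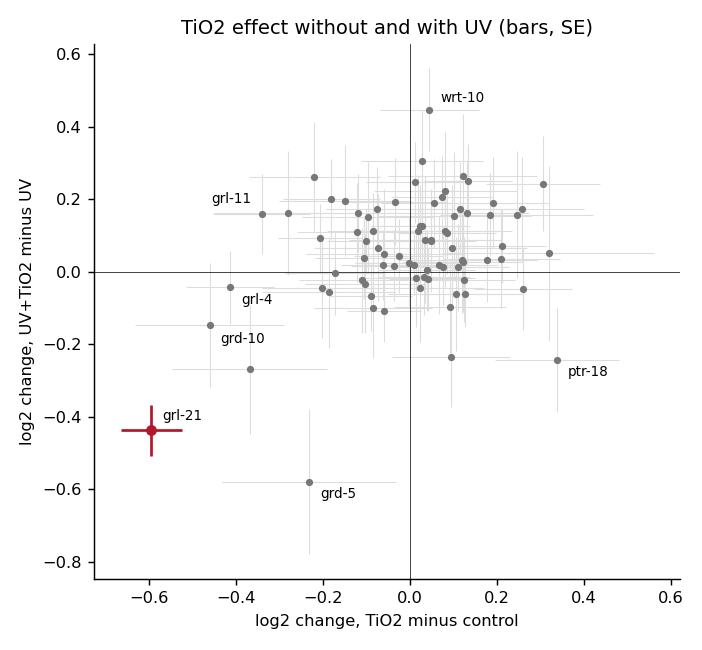
TiO2 effect without UV (horizontal axis, log2 change, TiO2 minus control) against that with UV (vertical axis, log2 change, UV+TiO2 minus UV) for the 80 genes, with bars for the SE. The red point, grl-21, lies at −0.60 and −0.44, and the grey points of the other members are spread around 0.

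Other genes tied to hedgehog-like signalling or sterol handling were read as a list. Of 10 listed genes 9 were measured, of which 6 fell after UV and none rose, with a median log2 change of −0.63. Among all genes 22.8% were lower and 27.9% higher. The falls were che-14 (−1.58), a relative of Dispatched that serves apical secretion in epithelia, lrp-1 (−1.50), a megalin-like receptor needed for moulting, and ncr-1 (−1.26), a relative of the cholesterol transporter NPC1. Smaller falls were those of hhat-2 (−0.85), daf-6 (−0.63), a patched-related gene that shapes the lumen of glial channels, and tra-1 (−0.35), the Gli-family factor that in worms directs sexual fate. The genes ptd-2 (0.02), ncr-2 (0.04) and scp-1 (0.41) did not pass. In UV+TiO2 against TiO2 tra-1 was not called by limma (−0.12, adjusted p = 0.372) and ptd-2 was called higher (0.24, adjusted p = 0.0444).

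Genes of moulting and of the apical matrix, the processes most often tied to these families, moved as follows. Of 9 measured moulting regulators 5 fell and 1 rose (median −0.59). The transcription factor genes blmp-1 (−2.88), elt-3 (−2.09), nhr-25 (−1.78), bed-3 (−0.85) and elt-1 (−0.59) fell, and nhr-23 rose by 0.42. Not called were lin-42 (0.08), myrf-1 (−0.27) and grh-1 (0.23). Of 14 moult and matrix genes 10 fell and 2 rose (median −1.73). The falls included noah-1 (−3.65), mlt-11 (−3.50), noah-2 (−3.26) and lpr-3 (−2.88), and the rises were the adult cuticle collagen genes bli-1 (0.78) and bli-2 (0.77). The mean of these 14 genes was 8.10 to 8.32 on the control arrays and 6.68 to 6.80 on the UV arrays. These lists, like the members, were chosen with earlier results of the same arrays known, and no set test was made.

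Markers of cell types and stages moved in the same samples, in which 22.8% of all genes were lower and 27.9% higher after UV. Of 8 measured markers of the epidermis and seam, where many members are made, 5 fell and 2 rose (array means 8.72 to 9.02 in control and 8.21 to 8.28 after UV). Among these falls elt-1, elt-3 and che-14 were already counted in the lists above. The epidermal factor lin-26 did not pass (log2 change 0.02), elt-3 (−2.09) and dpy-7 (−2.07) fell, and col-19, a collagen gene of the adult cuticle, rose by 1.13. Markers of various embryonic and early larval stages fell in 5 of 12 cases and rose in 3 (array means 7.45 to 7.64 and 6.54 to 6.63). The falls were cut-3 (−5.64), hch-1 (−4.01), cut-5 (−2.50), elt-7 (−1.61) and hlh-1 (−0.61), and the rises nhr-67 (1.28), pal-1 (0.77) and end-3 (0.31). With a list median of −0.045, the lower array means rest on the few deep falls. The control arrays, labelled young adult, held cut-3 at 11.62. Of 6 markers of glia, socket and duct cells only ptr-10, itself one of the 80 members, and daf-6, counted above, fell, and lin-48, lit-1, kcc-3 and fig-1 were not called (6.51 to 6.62 and 6.26 to 6.44). Of 10 markers of neurons 8 fell and 1 rose (8.21 to 8.51 and 7.04 to 7.18), of 9 of the intestine 8 fell and none rose (9.67 to 9.89 and 8.22 to 8.31), and of 8 of body wall muscle 5 fell and 1 rose (10.99 to 11.12 and 10.62 to 10.64). Of 10 germline and oocyte markers none fell and 5 rose (11.60 to 11.61 and 11.84 to 11.89), and of 10 sperm markers none fell and 6 rose (5.51 to 5.85 and 6.18 to 6.30). None of the germline and oocyte markers lay below the median level of all probe sets, but 7 of the sperm markers did. Among all genes 36% of those above that level and 19.8% of those below it were higher. Vitellogenin genes, which adult hermaphrodites express, were bright in control (vit-2 at 12.78, vit-6 at 13.89). Of 6 measured markers of the adult soma, vitellogenin genes and col-19, which was counted above, 3 fell and 2 rose (12.43 to 12.54 and 12.91 to 13.05). Their median change was −0.19, and the higher array means after UV come with the rise of vit-1 by 3.38, from 8.51 ± 0.30 to 11.89 ± 0.13. The part of these changes in tissue and stage markers in the fall of the hedgehog-related and patched-related genes was not tested.

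Neighbouring members were also set side by side. The members lie on chromosomes I (8), II (11), III (7), IV (11), V (31) and X (12). Consecutive protein-coding genes that are both members were wrt-1 and wrt-10 on chromosome II, which both fell, and grl-29 and grl-30 on chromosome V, which both rose by about as much (0.32 and 0.35). The next gene after grl-30, grl-31, changed by 0.26 and did not pass, and grl-9 and grl-8 changed by 0.27 and −0.27, neither past the threshold. With grd-3 and grd-10 these pairs showed both the same and opposite directions.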

How the data were processed

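From each sample 300 ng of whole-worm total RNA was amplified, biotinylated and hybridized to 12 Affymetrix arrays, 3 for each of 4 groups taken from the labels. The submitters' processing notes name GCOS, Expression Console and RMA, without versions. By RMA the signals are background-corrected, brought to like distributions across arrays and combined into 1 value per probe set, which hides any general loss of RNA in a group. The deposited values are log2 signals, with array medians between 6.36 and 6.62 and SDs between 2.22 and 2.33.

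Of 22625 probe sets 77 were controls, and the remaining 22548 entered the fit without a filter on low values. The platform annotation gives 20766 of them a single gene symbol, 887 more than 1 and 895 none. Among those with a single symbol 20701 were found in RefSeq's WBcel235 table, which changed 0 symbols and served only for names and neighbours. The build behind the platform annotation is not given in the sources used here.

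A model of the 4 group means over the 12 arrays was fitted with lmFit and eBayes of limma 3.58.1 (R 4.3.3), with 8 residual and 4.37 prior degrees of freedom. Contrasts were tested two-sided, with Benjamini-Hochberg adjustment over all 22548 probe sets and a threshold of 0.05. The steps were tested on simulated data. Replicate numbers were not used as a block, since same-numbered arrays did not deviate together in all pairs of groups.

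The members, the gene lists and the tests were chosen with earlier results of these data known. Every member was counted. Described with values were the 8 largest called rises and falls of the UV and UV+TiO2 comparisons with control, calls of the other comparisons (where under 3 passed, the 3 smallest p), the 2 brightest and 2 dimmest members of each family, 17 role genes, and members whose probe sets disagree. Further members are named with a value to account for each family. The same results were recomputed with each array left out, with a block for the replicate number, with a robust, level-dependent prior variance, without the dimmest 30% of probe sets, after renewed quantile normalization or median centring, with array weights, with array SD as a covariate, on 1 probe set per gene, on the arrays compared alone, and with other choices of a gene's probe set. Precision is limited by the number of arrays. No sequences are shown, because none were given for these genes.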

Additional observations from a re-analysis of the deposited data

How the results depend on the processing

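Counts of lower members kept within 1.5 times of their value under each alternative run, and so did the count of members that differed among the 4 groups. The 23 described members that were lower after UV and the 22 lower with UV+TiO2, both against control, kept their call under all alternatives, and 20 of 23 did against TiO2 alone. Rises were less stable: 4 of the 10 described for UV, 6 of 10 for UV+TiO2 against control and 3 of 7 against TiO2 kept theirs. The number of higher members moved from 11 after UV to 23 under median centring and 6 with only the arrays compared, and to between 5 and 16 with 1 array left out. For UV+TiO2 against control it moved from 12 to 20 with array weights and 27 under median centring, and to between 8 and 24 with 1 array left out. For UV+TiO2 against TiO2 it moved from 9 to 22 with array weights, 25 under median centring and 15 after a further quantile normalization, and to between 4 and 12 with 1 array left out. Median centring raises all changes by the difference in array medians. The cause of the other moves was not tested.

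The single member called for TiO2 against control became 0 under median centring, with only the arrays compared, with the robust prior variance, after a further quantile normalization and without the lowest probe sets, and 0 to 1 with 1 array left out. The single member called for UV+TiO2 against UV became 6 with array weights, 0 under the last 4 of these settings, and 0 to 1 with 1 array left out. With the lowest probe set of a gene grd-1 turned from −0.12 to 0.31 after UV and from −0.10 to 0.30 after UV+TiO2.

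The deviations of same-numbered arrays from their group means correlated between −0.71 and 0.50, so the replicate numbers do not pair the samples across all groups. Between control and UV the correlations were 0.50, 0.09 and 0.47, and between control and TiO2 −0.71, −0.23 and −0.25. With a replicate block 40 members were lower and 10 higher after UV, and 0 were called for TiO2 against control and for UV+TiO2 against UV.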
